A study of Mus musculus with 140 samples.

Results

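N6-methyladenosine (m6A) clusters of distal 3′ untranslated regions (3′ UTRs) are described here across mouse cortex and striatum. A cluster is a stretch of transcript where reads of an m6A immunoprecipitation (IP) pile up, and it was taken as distal where its midpoint lay, on the same strand, in the 3′ UTR of a protein-coding gene and more than 200 exonic bases past the stop codon. The 38 m6A IP libraries listed 6907427 clusters, of which 1461128 (21.2%) were distal, on 11615 genes, and all 70 IP libraries of the series listed 13239113 clusters. Of the 2746743 m6A clusters enriched over the input library of the same sample at a p of 0.001 or less, 723418 (26.3%) were distal, on 7340 genes, against 32.4% in coding sequence and 24.0% in the stop codon window, the last bases of coding sequence and the first 200 of the 3′ UTR. At the study's stricter thresholds, which also ask for a log2 fold of at least 3, 102470 of 420470 clusters (24.4%) were distal, on 3433 genes.

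The tested animals were R6/2 mice, which carry a transgene of exon 1 of human huntingtin with an expanded CAG repeat and model Huntington's disease (HD), and they were compared with non-transgenic (NT) mice on the same B6CBA background. Cortex and striatum were taken at 3 months, with 4 males and 4 females per genotype and region. A further set came from C57Bl/6 males whose ventricles received 500 µg of a TDP-43 antisense oligonucleotide (ASO) at 5 weeks, or PBS, with 3 libraries of each, collected 2 weeks later and labelled as cortex, although the treatment protocol names striatum. The transgene is a fragment of the human gene and acts in the whole animal, and each library is bulk tissue, so that fewer cells of a type and less RNA per cell cannot be told apart.

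m6A is placed on nascent mRNA by a complex around METTL3 and METTL14, at adenosines of the DRACH consensus (D is A, G or T, R is A or G, H is A, C or T, here in DNA letters). It is removed by FTO and ALKBH5 and bound by YTH-domain readers, which influence mRNA decay, translation and export. The mark gathers in long internal exons, around stop codons and in 3′ UTRs, where it lies among binding sites of microRNAs and of proteins that set the stability and the dendritic transport of neuronal mRNAs. The striatum consists mostly of medium spiny neurons, the projection neurons lost first in HD. TDP-43 is an RNA-binding protein that prefers TG repeats and binds the 3′ UTR of its own mRNA.

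To show what such sites look like, 29 bases are given for 11 genes on which the results below turn, read 5′ to 3′ on the transcript strand of GRCm38 (mm10) from the distal site of the gene that was enriched in the most libraries. Capitals mark 1 DRACH word, which is GGACT where the stretch searched around the middle of the site held it and otherwise another. Of several copies, the one nearest the position 25 bases 5′ of the middle was taken, where such words were most frequent. Other DRACH words of the same run are left in lower case. Whether the marked base carried m6A was not measured. The windows were chr9:45153240-45153268 on the plus strand (Scn4b), chr7:119143744-119143772 on the minus strand (Gpr139), chr19:10455460-10455488 on the minus strand (Lrrc10b), chr13:54052601-54052629 on the minus strand (Drd1) and chr4:63137567-63137595 on the plus strand (Zfp618). The other six were chr2:102781858-102781886 on the plus strand (Slc1a2), chr2:25291947-25291975 on the minus strand (Grin1), chr15:98804047-98804075 on the minus strand (Ddn), chr19:4153920-4153948 on the plus strand (Coro1b), chrX:73656053-73656081 on the minus strand (Pnck) and chr16:17507380-17507408 on the plus strand (Aifm3).
Scn4b: ttgactttggggAAACCtggacccatgca
Gpr139: ctggctgcagcaTGACAacatggggaaac
Lrrc10b: gtgagggccagaGGACActcagggacact
Drd1: aaagtcaactgtAAACAgcttcacttaaa
Zfp618: cactattttcctGGACTcgggctagactt
Slc1a2: ttttttccaaggGGACAggatgaaagcag
Grin1: cacccgccccagAGACTgcccaccctggg
Ddn: ccaaccggtttgAGACTgacatttaagcc
Coro1b: aagtactttaagGGACCatctcctcgacc
Pnck: tctgtgctttgcTGACTgtgggtggtcct
Aifm3: ggtgtagaggcaGGACAggctctgccttg

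Distal sites were densest just past the stop codon and thinned along the 3′ UTR. A site is a stretch that enriched clusters cover in 4 or more of the 38 libraries, and 10414 of 44595 sites (23.4%) were distal, on 5560 genes. The density fell from 1.48 sites per kb at 201 to 400 bases past the stop codon to 0.659 at 801 to 1000 bases and 0.247 at 4001 to 6000 bases. Towards the other end, it was 0.818 per kb at 100 to 199 bases before the annotated 3′ end and 0.511 in the last 100 bases. The enriched distal clusters lay a median of 567 bases past the stop codon, with 34.0% within 400 bases of it and 29.0% beyond 1000. At the limit of 200 bases the fold did not step, since clusters up to 50 bases past it had a median log2 fold of 2.13 and those up to 50 bases before it one of 2.14.

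Longer 3′ UTRs carried a distal site more often but at a lower density. Among 10436 genes with a site in an exon and a 3′ UTR over 200 bases, 5560 (53.3%) had a distal site, and for 1144 genes all exonic sites were distal. The share of genes with a distal site was 19.2% for 3′ UTRs of 201 to 500 bases, at 1.41 sites per kb, and 73.8% for those of 4001 to 20000 bases, at 0.365 sites per kb. Most genes had few, 3075 of them 1 site and 322 of them 5 or more. Among the genes with the most were Aak1, a kinase of clathrin-mediated endocytosis (16 sites in a 3′ UTR of 15925 bases), and Thrb, a thyroid hormone receptor (11 sites in 4424 bases).

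The base composition of distal sites followed the m6A consensus. In the 51 bases that end at the middle of the site, 88.9% of distal sites held 1 or more of the 18 DRACH words on the transcript strand, against 62.7% of 212844 windows of the same length tiled over distal 3′ UTRs, and 86.8% of stop codon window sites and 84.4% of coding sites held one. The single word GGACT was found in 22.1% of distal sites and 4.67% of tiled windows. It ranked first among all 1024 words of 5 bases, 4.83 times as frequent as in distal 3′ UTRs at large. GAACT (3.13 times), AGACT (2.79 times) and GGACA (2.69 times) were the next words with the full consensus.

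**Figure D1:**
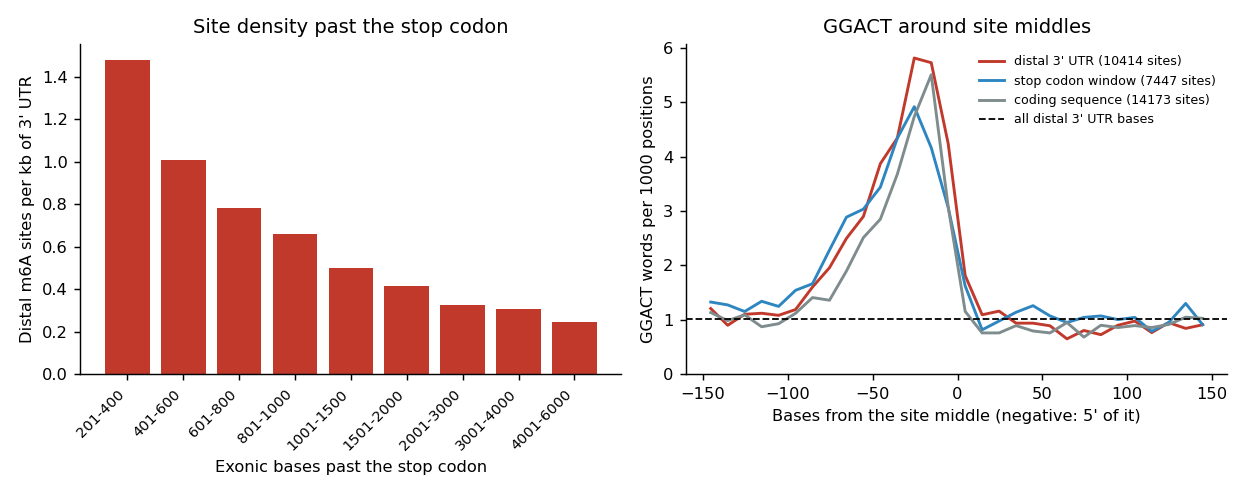
Left, distal m6A sites per kb of 3′ UTR (vertical axis) in bins of exonic distance past the stop codon (horizontal axis). Right, GGACT words per 1000 positions (vertical axis) by distance in bases from the site middle (horizontal axis), for distal, stop codon window and coding sites, with the dashed line at the rate of all distal 3′ UTR bases. Density declined from 1.48 to 0.247 sites per kb, and GGACT in distal sites peaked at 5.81 per 1000 positions 30 to 21 bases 5′ of the middle.

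GGACT words lay mostly 5′ of the middle of distal sites, at 5.81 per 1000 positions between 30 and 21 bases 5′ of it and 5.72 between 20 and 11, against 1.01 over all distal 3′ UTR bases. Just 3′ of the middle, 10 to 19 bases away, the rate was 1.10. Neither the polyadenylation signal AATAAA, in 1.74% of distal sites and 3.38% of tiled windows, nor TGTGT, a word of the kind TDP-43 prefers, in 8.12% and 10.1%, was more frequent at distal sites. These windows were placed after the profile of the words around sites had been seen, and they are a description.

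Distal sites recurred across libraries, though less often than those at the stop codon. Of the distal sites, 4215 (40.5%) were enriched in all 38 libraries, against 52.2% of stop codon window sites and 35.1% of coding sites, and their median length was 167 bases, against 239 and 145. GGACT stood in 19.4% of distal sites of 4 to 9 libraries, in 26.2% of those of 20 to 37 and in 20.5% of those of all 38. In each of the 32 R6/2 and NT libraries the median log2 fold over input of enriched clusters was lower in distal 3′ UTRs (1.76 to 2.24) than in the stop codon window (1.93 to 2.37), by −0.149 ± 0.0201 (SD, n = 32, sign-flip permutation test, two-sided, p = 1e-05, the smallest that 100000 flips can give). Against coding sequence (1.90 to 2.22) the difference was −0.0672 ± 0.0817 (p = 4e-05 in the same permutation test) and its sign was negative in 19 of the 32 libraries and positive in 13. Both tests pooled the sexes without a stratum and took the libraries of the regions as independent.

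Between 56405 and 99049 clusters were enriched per library, 14959 to 24806 of them distal. Male and female libraries of R6/2 and NT mice differed, with overlap in the distal share and none in the median log2 fold. The R6/2 and NT males had 23.4 to 28.5% of enriched clusters in distal 3′ UTRs and a median log2 fold there of 2.10 to 2.24, and the females had 25.4 to 30.6% and 1.76 to 1.93. Whether sex or a difference in handling lay behind this cannot be told apart, so sex was a covariate or a stratum in the comparisons of genotypes and of regions. In the ASO set, 99.2 to 99.3% of intervals were identical between libraries of 1 treatment, against 0.328 to 1.07% in the other groups. The 3 lists of a treatment thus hold nearly the same intervals, and tests there on numbers of clusters are no replicate tests.

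The share of enriched clusters in distal 3′ UTRs did not differ past the threshold between groups. In striatum it was 23.4, 25.05 and 29.0% (lowest, median, highest) in R6/2 mice and 24.2, 26.1 and 29.7% in NT mice, a difference of −1.01 percentage points (exact permutation within sex, p = 0.0588, adjusted p = 0.235 over 20 library tests). In cortex it was 24.4, 26.3 and 29.1% in R6/2 and 25.1, 27.9 and 30.6% in NT mice, a difference of −1.36 points (exact p = 0.0282, adjusted p = 0.141). The groups overlapped in both regions, and the differences were −0.453 in males and −1.56 in females of striatum and −1.41 in males and −1.31 in females of cortex. Without 1 cortex NT library, female replicate 4, the cortex difference was −1.68 with an adjusted p of 0.049, under the study's thresholds it was −0.00408 and over all listed clusters −2.17.

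**Figure D2:**
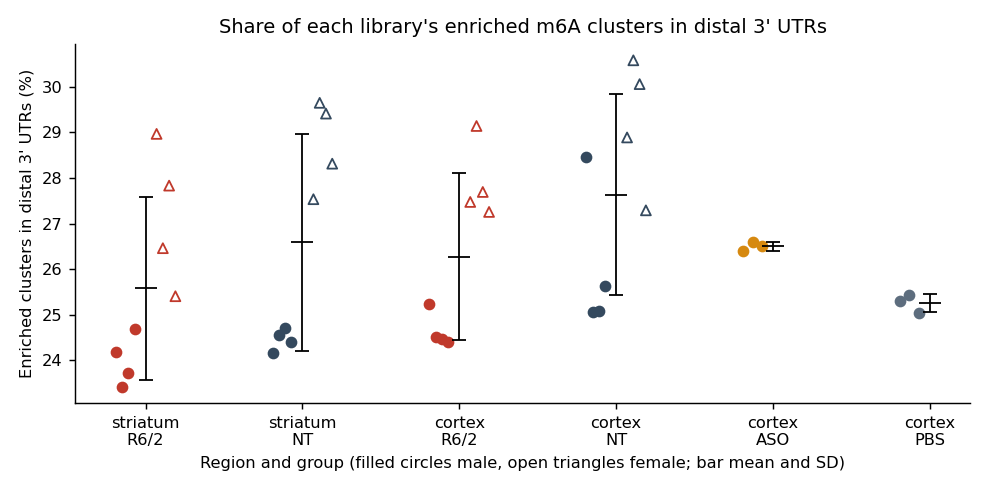
Percentage of each library's enriched m6A clusters that lie in distal 3′ UTRs (vertical axis) by region and group (horizontal axis). Filled circles are males and open triangles females, with the mean and SD as bars, and the R6/2 and NT groups overlap in both regions, whereas the 3 ASO libraries (26.4 to 26.6%) lie above the 3 PBS libraries (25.04 to 25.4%).

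After the ASO, 26.4, 26.6 and 26.5% of enriched clusters were distal, against 25.3, 25.4 and 25.04% after PBS. These groups did not overlap, but 3 against 3 libraries cannot go below an exact p of 0.1, which was the value (difference 1.25 points, adjusted p = 0.293). Striatum of NT mice was 1.04 points below NT cortex (exact p = 0.102, adjusted p = 0.293).

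The position of distal clusters along the 3′ UTR was compared next. The median distance past the stop codon was 574 ± 11.2 bases in R6/2 and 575.1 ± 8.27 bases in NT striatum, and 570.2 ± 7.94 and 575.1 ± 7.94 bases in cortex (SD, n = 8 each, adjusted p = 0.951 and 0.386 in exact permutation tests). Over all listed clusters, enriched or not, the differences were −17.2 bases in striatum and −42.1 bases in cortex, neither past the threshold. The share of enriched distal clusters with a DRACH word was 79.68 ± 0.4004% in R6/2 cortex and 80.4 ± 0.420% in NT cortex (difference −0.731 points, exact p = 0.00408, adjusted p = 0.0816), and 79.5 ± 1.65% and 79.6 ± 1.28% in striatum. That cortex difference passed the threshold without R6/2 female replicate 1 (adjusted p = 0.0327) or NT female replicate 3 (0.0408). Of the enriched 3′ UTR clusters, 64.5% were distal in R6/2 and 64.5% in NT striatum, and 64.7% and 64.6% in cortex.

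In striatum, 212 of 3463 genes with enough distal clusters changed in number between R6/2 and NT mice, 163 of them downwards. The value is a gene's number of enriched distal clusters divided by a size factor of the library, and the change is on the scale of log2(number + 0.5), tested with limma over 13980 gene and class combinations at an adjusted p under 0.05. Of all combinations 4.77% were called, 1.47% higher and 3.3% lower, and of the distal ones 6.12%, against 2.95% of stop codon windows, 4.44% of coding sequences, 9.38% of introns and 9.01% of other exons. The sign was the same in males and females for all 212, which a call from a fit over both sexes makes likely beforehand. In males alone 22 distal genes were called and in females alone 65, with fewer libraries. At an unadjusted p under 0.05 there were 703. The median change of all distal combinations was −0.04. These p-values measure the spread between the libraries of this study.

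Distal clusters fell in receptor and channel genes known from striatal neurons, 3 of which are given first. Gpr139, a G protein-coupled receptor of the brain, had 0, 1.00 and 4.08 enriched distal clusters (lowest, median, highest) in R6/2 and 9.32, 12.4 and 14.9 in NT striatum (log2 change −2.97, SE 0.24, limma adjusted p = 2.84e-07). Scn4b, the beta 4 subunit of voltage-gated sodium channels, had 2.31, 3.39 and 4.36 in R6/2 and 6.36, 10.1 and 13.7 in NT striatum (−1.43, SE 0.12, adjusted p = 2.84e-07). In both genes every R6/2 library was below every NT library. Drd1, the D1 dopamine receptor of striatonigral neurons, had 0, 2.59 and 4.36 in R6/2 and 3.18, 4.99 and 8.39 in NT striatum, with some overlap (−1.27, SE 0.25, adjusted p = 0.00339).

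Besides Gpr139 and Scn4b, 4 others were among the 6 lowest genes that averaged 3 or more clusters, and these also showed no overlap between the genotypes. Of all 3463 distal genes tested 34 showed none, and the genes named here were picked for their large changes. Lrrc10b, which encodes a leucine-rich repeat protein, had 2.27, 4.83 and 6.10 in R6/2 and 9.16, 11.8 and 20.5 in NT striatum (−1.43, SE 0.12, adjusted p = 3.81e-07). Cd4, best known as the co-receptor of helper T cells, had 0.841, 1.04 and 2.27 in R6/2 and 4.07, 5.13 and 6.52 in NT striatum (−1.70, SE 0.17, adjusted p = 2.43e-06). Ptpn7, a tyrosine phosphatase (−1.82, SE 0.24, adjusted p = 9.88e-05), and St8sia2, which adds polysialic acid to the neural cell adhesion molecule (−1.42, SE 0.21, adjusted p = 0.00032), completed them.

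Fewer genes gained distal clusters. Zfp618, a zinc finger protein gene, had 8.51, 10.1 and 11.5 in R6/2 and 2.83, 4.44 and 9.54 in NT striatum (0.94, SE 0.15, adjusted p = 0.000615), and the highest NT library lay within the R6/2 range. Gnaq, a G protein alpha subunit (0.89, adjusted p = 0.0207), Creb3l2, a transcription factor anchored in the endoplasmic reticulum (0.83, adjusted p = 0.00562), Chdh, choline dehydrogenase (0.77, adjusted p = 0.0264), and Ppp2r3a, a regulatory subunit of protein phosphatase 2A (0.77, adjusted p = 0.00558), were also higher in R6/2 striatum.

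**Figure D3:**
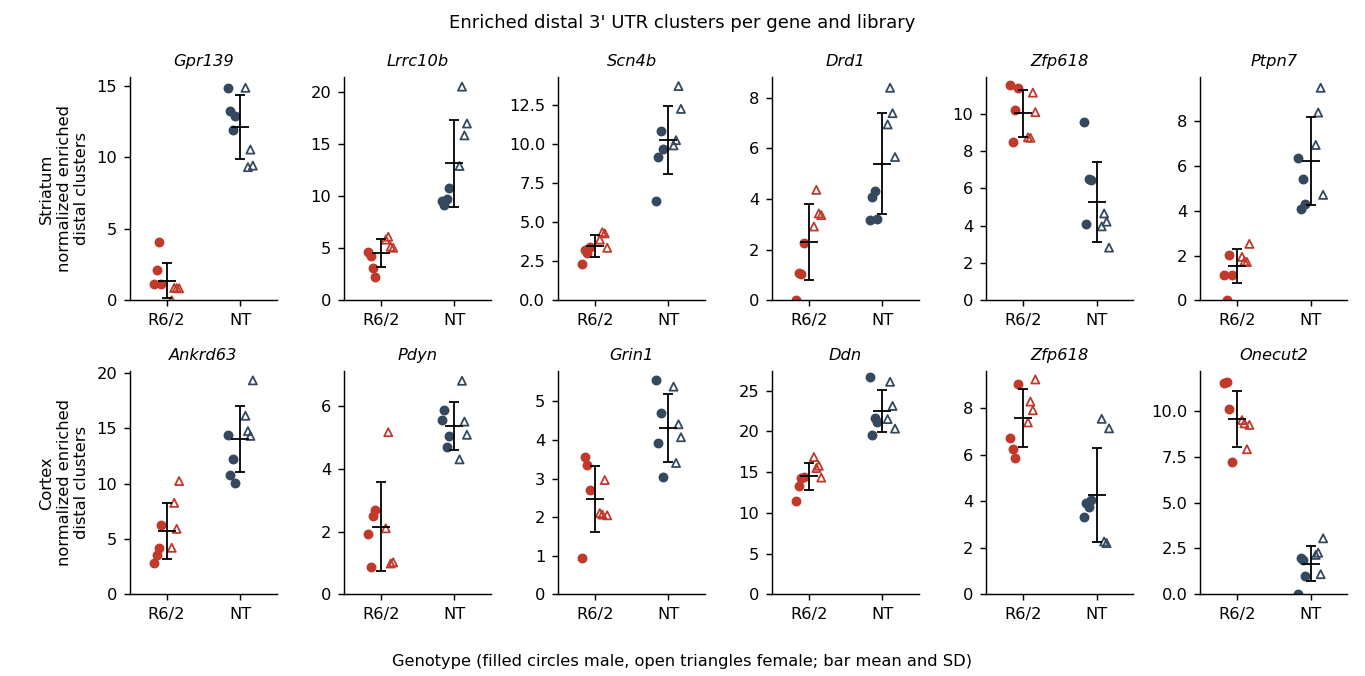
Normalized number of enriched distal 3′ UTR clusters (vertical axes) in each R6/2 and NT library (horizontal axes) for 6 genes in striatum (upper row) and 6 in cortex (lower row). Filled circles are males, open triangles females, and bars the mean and SD. Gpr139, Lrrc10b and Scn4b of striatum show no overlap between genotypes, and Onecut2 of cortex lies at 7.21 to 11.6 in R6/2 and 0 to 3.05 in NT mice.

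Whether fewer clusters meant less covered sequence depended on the gene. The number of bases covered by enriched distal clusters, an alternative chosen after the data were seen, fell with the number in Gpr139, at 0, 97.2 and 384 bases in R6/2 and 1070, 1113 and 1269 bases in NT striatum (−3.13, SE 0.39, adjusted p = 0.000385). In Scn4b the R6/2 libraries covered 129, 263 and 343 bases and the NT libraries 297, 342 and 455, which overlap and did not pass the test (−0.46, SE 0.14, adjusted p = 0.112). Lrrc10b (−0.24, adjusted p = 0.244), Cd4 (−0.28, adjusted p = 0.219) and Ppp2r3a (0.19, adjusted p = 0.303) also lost their calls, whereas St8sia2 (−1.15, adjusted p = 0.000277), Ptpn7 (−1.90, adjusted p = 0.0103), Drd1 (−1.08, adjusted p = 0.0238) and Zfp618 (0.77, adjusted p = 0.0227) kept them. In all, 149 distal genes were called on covered bases in striatum, 44 higher and 105 lower, out of another set of tested genes than for cluster numbers. Counted over all listed clusters, enriched or not, 149 were called, and Zfp618 (0.17, adjusted p = 0.555), Gnaq (0.15, adjusted p = 0.569), Creb3l2 (0.28, adjusted p = 0.412), Chdh (0.04, adjusted p = 0.942) and Ppp2r3a (0.48, adjusted p = 0.058) of the higher genes were no longer past the threshold.

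**Figure D4:**
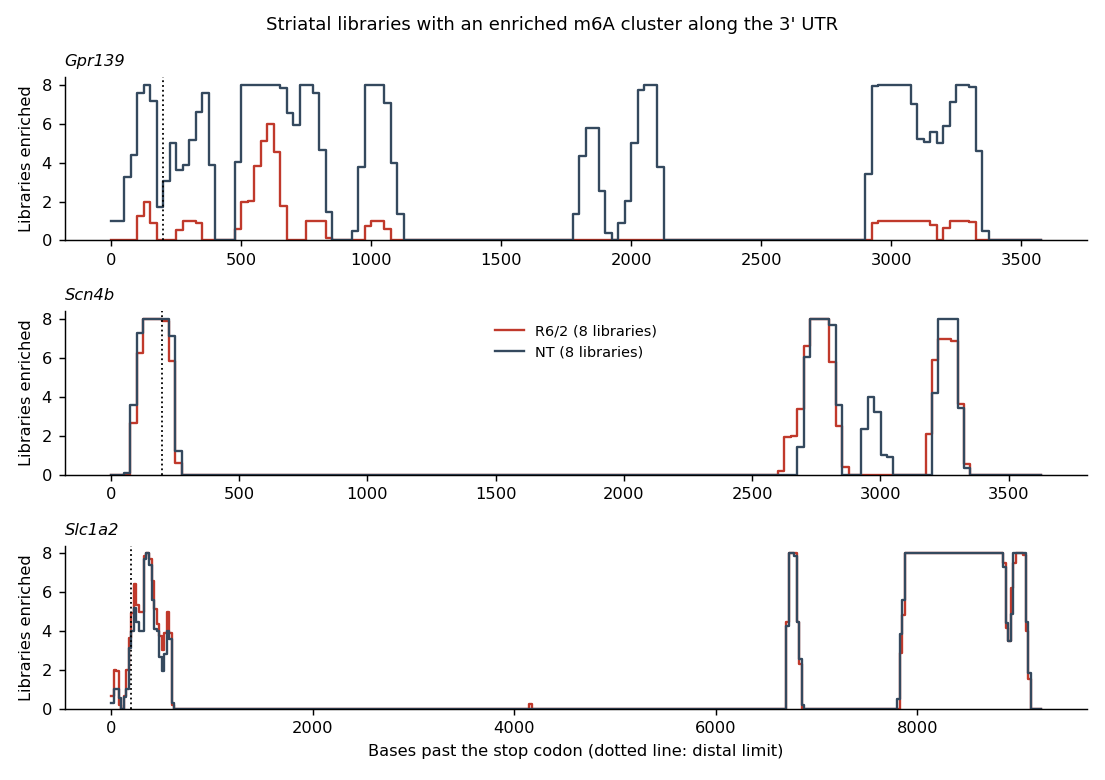
Mean number of the 8 R6/2 and the 8 NT striatal libraries with an enriched m6A cluster (vertical axes, 0 to 8) along the 3′ UTR of Gpr139, Scn4b and Slc1a2, by bases past the stop codon (horizontal axes, dotted line at the distal limit of 200 bases). In Gpr139 the NT libraries cover several stretches that few R6/2 libraries cover, whereas in Scn4b and Slc1a2 most covered stretches lie in the same places in both genotypes.

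Along the 3′ UTR of Scn4b, enriched clusters of both genotypes covered mostly the same stretches, which were split into more clusters in NT than in R6/2 libraries. The gene with the most enriched distal clusters in NT mice of both regions was Slc1a2, the main glutamate transporter of astrocytes, at 35.7, 38.6 and 42.8 enriched distal clusters in R6/2 and 37.9, 48.6 and 54.1 in NT striatum (−0.29, SE 0.06, adjusted p = 0.00841). Its covered bases were 1377, 1616 and 1770 in R6/2 and 1441, 1568 and 1720 in NT striatum (−0.00051, adjusted p = 0.996). Other genes with many distal clusters in NT striatum did not pass the test, among them Prkce, a protein kinase C (27.7, 31.2 and 42.7 in R6/2, 30.8, 35.0 and 40.5 in NT, adjusted p = 0.377), and Gria1, an AMPA receptor subunit (−0.10, adjusted p = 0.619).

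Genes of the HD signature and markers of medium spiny neurons fell as groups in striatum. The study named this signature, with 195 genes expected to fall, from HD mouse models, so the list is not independent of its direction. Of its 50 genes with enough distal clusters, 30 were called lower and none higher, against 4.77% of all combinations, and 50 had a negative sign, with a median change of −0.71 beside −0.04 over all distal combinations. Gpr139, Ptpn7 and Gpm6b, a proteolipid family membrane protein (−1.46, SE 0.30, adjusted p = 0.00512), had the largest changes, that of Gpm6b being −0.49 over all listed clusters (adjusted p = 0.0794). Of its 71 genes expected to rise, 8 were tested, with a median of 0.47, and 1 (Chdh) was called. Leaving out single libraries ended the call of Chdh in 5 of 16 cases.

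Of 41 medium spiny neuron markers 17 were tested, of which 11 were called lower and 1 (Isl1, 0.48, adjusted p = 0.0406) higher, with a median of −0.79. The summed distal clusters of this list were 104, 121 and 159 in R6/2 and 163, 207 and 245 in NT striatum, which do not overlap, while Penk, Ppp1r1b, Rgs9 and Tac1, defining markers of these cells, had no enriched distal cluster in any library. On covered bases both lists moved less, with 21 of 67 genes of the signature called lower (median −0.24, beside −0.02 over all distal combinations) and 5 of 18 medium spiny neuron markers (median −0.17). The share called over all combinations on covered bases is not reported here, so these counts have no background beside them. The lists share 20 genes.

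Some immediate early and dendritic mRNAs were called lower, beside 3.3% of all combinations. Of 14 immediate early genes tested 4 were called lower, among them the activity-induced zinc finger factors Egr2 (−1.66), Egr1 (−0.82, SE 0.14, adjusted p = 0.00123) and Egr3, with a list median of −0.23. Of 16 mRNAs known from dendrites 4 were called lower (median −0.18). Ddn, dendrin, had 14.3, 15.7 and 19.4 in R6/2 and 21.5, 23.0 and 29.5 in NT striatum, with no overlap (−0.55, SE 0.08, adjusted p = 0.000201), Grin1, the obligatory NMDA receptor subunit, had 1.02, 2.52 and 4.28 in R6/2 and 4.07, 4.80 and 5.95 in NT striatum (−0.95, SE 0.18, adjusted p = 0.00346), and Dlgap3, a postsynaptic scaffold protein, fell by 0.95 (adjusted p = 0.0113). Of these, Egr2 (adjusted p = 0.234), Egr3 (0.0696), Dlgap3 (0.253) and Grin1 (0.295) were not called on covered bases, where 1 of 17 immediate early genes and 1 of 17 dendritic mRNAs were called lower. The 3.3% above belongs to numbers of clusters, and no such share is reported here for covered bases.

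Markers of other cells gave single calls or none, in lists too short to be set apart from the 6.12% called among all distal combinations. Among markers of astrocytes 1 of 7 was called (Slc1a2), of oligodendrocytes 1 of 13 (Mal, a myelin proteolipid), of cortical excitatory neurons 1 of 8 (Camk2a), and of interneurons, microglia and vessels 0 of 4, 0 of 3 and 0 of 5. The summed distal clusters were 61.7, 68.7 and 78.6 in R6/2 and 61.7, 78.3 and 87.7 in NT striatum for astrocyte markers, of which Gfap, Aldh1l1 and Apoe had none, and 65.6, 82.2 and 94.2 against 80.4, 86.7 and 98.1 for oligodendrocyte markers. Microglial markers summed to 12.2, 14.0 and 17.5 in R6/2 and 11.9, 14.4 and 20.05 in NT striatum, with Aif1, C1qa, C1qb and Itgam at 0. Their part in the results was not tested. Of 21 proteins that bind 3′ UTRs or promote decay, 1 mRNA was called (Celf4, −0.29, adjusted p = 0.0403, lost in 11 of 16 leave-one-out fits), and none of 5 splicing factors, 4 of 3′ end processing, 2 m6A writers and 2 erasers or readers.

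Distal clusters were also set against the rest of the same transcript, so that a change common to the whole transcript cancels. The difference of log2 values between the distal 3′ UTR and the remainder of the gene was called in none of 2669 genes of striatum (0%, limma), with 279 at an unadjusted p under 0.05. Of the 212 called genes, 166 had enough clusters elsewhere, and in 151 the remainder had the same sign, with a median change of −0.55 in distal 3′ UTRs and −0.25 in the remainder. These genes were chosen by their distal change, so a larger median there follows from the choice. Over all 2669 genes the median difference was −0.05. The 39 tested signature genes expected to fall had a median of −0.03 in this difference, and the 17 medium spiny neuron markers one of −0.22. On covered bases 22 genes were called.

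A second measure was the authors' log2 fold of IP over input reads at a site, which sets the cluster against the transcript present in the same sample. After centring each library on its median, 26 of 7265 distal sites changed in striatum, 24 of them downwards (0.284% of 29259 sites of all classes were called), and 773 had an unadjusted p under 0.05. The lowest, median and highest values of single sites, here and below, are log2 folds before centring, whereas the changes are after it. Coro1b, an actin-binding coronin, had 0.547, 0.879 and 0.931 in R6/2 and 1.33, 1.89 and 2.00 in NT striatum at its site 238 bases past the stop codon (−0.95, SE 0.10, adjusted p = 0.000151). Pnck, a calcium/calmodulin-dependent kinase, had −0.338, 0.0345 and 0.248 in R6/2 and 0.490, 0.740 and 0.956 in NT striatum (−0.73, SE 0.09, adjusted p = 0.000608). The genotypes did not overlap at either site, as at 32 of all 7265 distal sites tested. Of the 2 higher sites, that of Acvrl1, a receptor of the TGF-beta family, had 2.03, 2.45 and 2.99 in R6/2 and 1.57, 1.84 and 2.20 in NT striatum, with some overlap (0.57, SE 0.10, adjusted p = 0.0234), and the other lay in Shroom2, an actin-binding protein (0.35, SE 0.07, adjusted p = 0.0353). The count was 16 without R6/2 male replicate 3, NT female replicate 1 or NT female replicate 3, and 17 without R6/2 female replicate 4 or NT male replicate 4.

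Genes with fewer clusters had only small shifts of the log2 fold at the sites tested, which every striatal R6/2 and NT library listed. Sites missing from any of these lists could not enter. The 311 tested sites of 158 genes with a called fall in cluster number had a median change of −0.10, and 233 of them were negative, beside 3585 of all 7265 distal sites. Enrichment and log2 fold come from the same IP and input libraries, so the measures are not independent. Of these 311 sites 11 were called. Grin1 was called by both measures, with a log2 fold before centring of 0.816, 1.25 and 1.55 in R6/2 and 1.58, 1.91 and 2.27 in NT striatum at a distal site (−0.67, SE 0.10, adjusted p = 0.00779). At Scn4b none of 3 sites was called, and the most recurrent, 2774 bases past the stop codon, changed by −0.39 (SE 0.11, adjusted p = 0.168).

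In cortex 115 of 3250 distal genes were called between R6/2 and NT mice, 22 higher and 93 lower (3.54%, against 2.84% of 12695 combinations of all classes, 0.898% higher and 1.95% lower), and 586 had an unadjusted p under 0.05. In 17 of the 3250 the genotypes did not overlap. Onecut2, a homeodomain transcription factor, had 7.21, 9.40 and 11.6 in R6/2 and 0, 1.92 and 3.05 in NT cortex (2.37, SE 0.27, adjusted p = 7.9e-05). It was the largest change among the named genes of cortex and was also called on covered bases (2.68, adjusted p = 0.00436). Chd2, a chromatin remodeller, had 3.60, 4.33 and 5.92 in R6/2 and 1.11, 2.88 and 3.30 in NT cortex with no overlap (0.77, SE 0.16, adjusted p = 0.0137), and Zfp618 rose as in striatum (5.87, 7.64 and 9.22 in R6/2, 2.20, 3.84 and 7.53 in NT, 0.85, adjusted p = 0.0218), but over all listed clusters its change was −0.03 (adjusted p = 0.914) and that of Chd2 0.10 (adjusted p = 0.854).

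Among the named genes that fell in cortex, Ankrd63, an ankyrin repeat protein, had 2.87, 5.07 and 10.2 in R6/2 and 10.1, 14.4 and 19.3 in NT cortex (−1.30, SE 0.16, adjusted p = 0.000122), with a narrow overlap. Pdyn, the precursor of dynorphins, had 0.889, 2.01 and 5.17 in R6/2 and 4.30, 5.30 and 6.81 in NT cortex (−1.28, SE 0.23, adjusted p = 0.00378). Kcnc1, the fast-spiking potassium channel Kv3.1, had 1.68, 3.33 and 5.12 in R6/2 and 2.94, 7.06 and 11.2 in NT cortex (−1.01, SE 0.16, adjusted p = 0.00129). The pseudokinase gene Nrbp2 had 0.839, 1.86 and 3.16 in R6/2 and 3.76, 5.44 and 6.66 in NT cortex, with no overlap (−1.38, SE 0.19, adjusted p = 0.00051). All 4 were also called on covered bases. Ddn fell to 11.5, 14.4 and 16.9 in R6/2 cortex, against 19.6, 21.6 and 26.6 in NT cortex (−0.62, SE 0.08, adjusted p = 0.000286).

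Signature genes and medium spiny neuron markers were also called lower in cortex, where the difference from striatum was not tested for lists. Of 35 genes expected to fall 6 were called lower and none higher, beside 1.95% of all combinations called lower. Their median was −0.29, beside −0.04 over all distal combinations, and of 7 expected to rise none was called. Of 11 medium spiny neuron markers 5 were called lower, led by Pdyn, Drd2 and Arpp19 (median −0.51, the call of Drd2 being lost in 8 of 16 leave-one-out fits), of which Drd2 (adjusted p = 0.0986) and Arpp19 (−0.07, adjusted p = 0.869) were not called over all listed clusters, nor on covered bases (0.0884 and 0.0569), and their summed distal clusters were 45.4, 56.9 and 72.7 in R6/2 and 73.5, 84.7 and 95.8 in NT cortex. Those sums do not overlap. Markers of cortical excitatory neurons summed to 82.2, 92.8 and 104 in R6/2 and 93.1, 104 and 116 in NT cortex, with 1 of 11 called. Of 15 dendritic mRNAs 4 and of 15 immediate early genes 2 (Egr2 and Egr1) were called lower. The call of Egr1 was lost in 14 of 16 leave-one-out fits, over all listed clusters (limma adjusted p = 0.0591) and on covered bases (0.095).

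In 2 genes of cortex the distal 3′ UTR changed relative to the rest of the transcript (0.083% of 2409 genes, limma, with 254 at an unadjusted p under 0.05). Grin1 had 0.956, 2.40 and 3.56 enriched distal clusters in R6/2 and 3.03, 4.24 and 5.55 in NT cortex, against 4.45 ± 1.37 in R6/2 and 3.19 ± 1.37 in NT cortex over the rest of the gene (SD, n = 8 each), a relative change of −1.18 (SE 0.22, adjusted p = 0.0477). Tspoap1, a presynaptic scaffold that binds RIM proteins, had 0.839, 1.03 and 2.11 in R6/2 and 2.20, 3.37 and 5.05 in NT cortex, against 12.8 ± 2.49 in R6/2 and 13.8 ± 2.45 in NT cortex over the rest (−1.08, SE 0.21, adjusted p = 0.0477). Neither was called without R6/2 male replicate 4, R6/2 female replicate 2 or 4, any 1 of the 4 NT males, or NT female replicate 1, 2 or 4, while 4 genes were called without R6/2 female replicate 1 and 5 without R6/2 female replicate 3. The fall of Grin1 itself lost its call in 8 of 16 leave-one-out fits (highest adjusted p 0.0687).

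Of 7365 distal sites in cortex 9 were called on the log2 fold, 8 of them lower (0.0933% of 28941 sites of all classes, with 753 distal sites at an unadjusted p under 0.05). At 12 of the 7365 the genotypes did not overlap. Aifm3, a mitochondrial flavoprotein, had 0.302, 0.585 and 0.757 in R6/2 and 0.777, 1.53 and 1.84 in NT cortex, with no overlap (−0.94, SE 0.11, adjusted p = 0.000903). Rprd1a, a regulator of RNA polymerase II, was the single higher one (0.69, SE 0.11, adjusted p = 0.023). Without R6/2 male replicate 3 or 4, R6/2 female replicate 2 or NT female replicate 3, the count was 5.

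Some changes were common to both regions. Of the 3097 distal genes tested in both, 46 were called in both (21.7% of the striatum calls and 40% of the cortex calls), 39 lower in both, 6 higher in both and 1 opposite in sign. Among those lower in both were Egr2 (−1.66 in striatum, −1.37 in cortex), Grin1 (−0.95, −0.73), Ddn (−0.55, −0.62), Slc1a2 (−0.29, −0.32) and Camk2a (−0.35, −0.42). On covered bases Ddn was called in both regions, whereas Egr2 (adjusted p = 0.234 in striatum, 0.366 in cortex), Grin1 (0.295, 0.15), Slc1a2 (0.996, 0.609, with the sign turned in cortex) and Camk2a (0.0934, 0.345) were called in neither. On the log2 fold 5 sites were called in both (19.2% of the striatum calls and 55.6% of the cortex calls). They lay in Pnck (−0.73 in striatum, −0.74 in cortex), Celf5, an RNA-binding protein of the CELF family (−0.68, −0.45), Copz1, a COPI coat subunit (−0.63, −0.77), Zer1, a substrate receptor of a ubiquitin ligase (−0.52, −0.52), and Kifc2, a kinesin (−0.41, −0.54). Of 25 sites called in striatum and tested in cortex, 25 had the same sign there, 23 of them negative, beside 46.9% negative among all sites tested. The 2 regions come from different libraries, and the labels do not say whether they share animals.

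**Figure D5:**
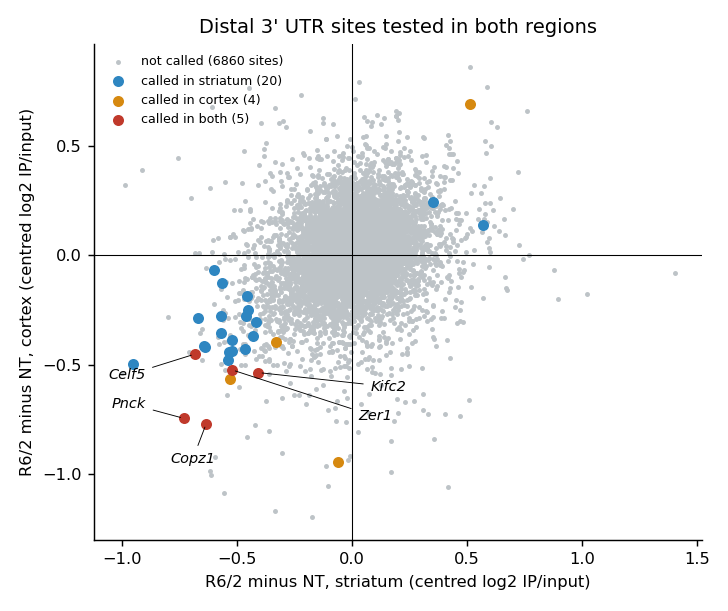
Change of the centred log2 fold of IP over input at each distal site tested in both regions, R6/2 minus NT in striatum (horizontal axis) against R6/2 minus NT in cortex (vertical axis). Grey points are 6860 sites called in neither region, blue 20 called in striatum, orange 4 called in cortex and red 5 called in both, and all 5 red points lie below 0 on both axes.

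The distance of called sites to the annotated 3′ end was looked at after the values had been seen. In cortex 6 of 9 called sites (66.7%) were within 200 bases of it, beside 12.8% of all distal sites tested, in striatum 6 of 26 (23.1%), beside 12.6%, and between regions 2 of 15 (13.3%), beside 13%. The counts are small and were not tested.

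In 5 distal genes, 4 of them named here after their values were seen, the regions differed in their response to the R6/2 genotype, by a limma contrast of the 2 effects (0.13% of 13041 combinations called, 241 of 3309 distal ones at an unadjusted p under 0.05). Onecut2 changed by 0.16 in striatum and 2.38 in cortex (difference −2.22, SE 0.34, adjusted p = 0.000769). Asxl1, a Polycomb-associated chromatin factor (0.55 in striatum, −0.54 in cortex, difference adjusted p = 0.0463), Camkk1, an activator of calmodulin-dependent kinases (−0.81, −0.17, adjusted p = 0.0293), and Kcnk9, a leak potassium channel (−0.76, 0.11, adjusted p = 0.0476), were closer to the threshold. With a replicate block 4 genes were called, and over all listed clusters 2.

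NT striatum and NT cortex differed more than the genotypes did. Of 3337 distal genes 467 were called, 185 higher in striatum and 282 lower (14.0%, against 11.9% of 12955 combinations, 5.69% higher and 6.26% lower). Gpr139 had 8.57, 11.5 and 13.8 in striatum and 0, 0 and 2.07 in cortex (4.04, SE 0.31, adjusted p = 3.46e-08). Scn4b had 5.93, 9.25 and 12.7 in striatum and 0.958, 1.12 and 2.06 in cortex (2.46, SE 0.16, adjusted p = 4.65e-09). Onecut2 had 7.80, 11.1 and 15.1 in NT striatum and 0, 1.96 and 3.11 in NT cortex (2.59, SE 0.29, adjusted p = 3.66e-06), and its 7.21 to 11.6 in R6/2 cortex, normalized in another fit, overlapped that striatal range. These 3 genes showed no overlap between regions, as did 115 of all 3337 distal genes tested.

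In the other direction, Tbr1, a T-box factor of deep-layer neurons, had 0, 0 and 1.01 in striatum and 1.92, 3.18 and 4.61 in cortex (−2.28, SE 0.31, adjusted p = 3.41e-05). Of 17 medium spiny neuron markers 16 were higher in striatum (median 1.23), and of 9 excitatory neuron markers 7 were lower (median −0.88), which checks the tissue labels on distal clusters. The summed distal clusters of medium spiny neuron markers were 152, 191 and 226 in striatum and 75.1, 86.2 and 97.0 in cortex. Those of oligodendrocyte markers were 74.7, 80.0 and 90.7 in striatum and 51.9, 53.8 and 63.3 in cortex, with 4 of 11 called higher.

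Relative to the rest of the transcript, 20 of 2490 genes differed between regions, 6 higher and 14 lower in striatum (0.803%). Nrbp2 had 0, 0.861 and 1.95 distal clusters in striatum and 3.83, 5.51 and 6.79 in cortex, while the rest of the gene had 1.299 ± 0.506 in striatum and 1.58 ± 0.803 in cortex (SD, n = 8 each; relative change −2.31, SE 0.37, adjusted p = 0.0101). Limch1, an actomyosin regulator, differed in the rest of the gene, at 5.16 ± 2.25 in striatum and 0.775 ± 0.704 in cortex, rather than in its distal clusters, at 5.01, 7.52 and 10.4 in striatum and 4.00, 5.71 and 8.30 in cortex (−1.91, SE 0.37, adjusted p = 0.0276). Mn1, a transcriptional coregulator, had 0.988, 2.72 and 4.87 distal clusters in striatum and 0, 1.05 and 2.07 in cortex, over a similar rest of 22.3 ± 3.12 in striatum and 19.8 ± 1.84 in cortex (1.36, SE 0.29, adjusted p = 0.037). That count rests on single libraries. Leaving out each in turn gave between 3 (without striatum male replicate 3) and 26 genes, and 12 of the 16 left 13 or fewer.

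On the log2 fold 15 of 7282 distal sites differed between the regions, 9 higher and 6 lower in striatum (0.277% of 28148 sites of all classes). At 12 of the 7282 the regions did not overlap. Dnal1, an axonemal dynein light chain, had 1.87, 2.58 and 2.92 in striatum and 0.631, 1.25 and 1.73 in cortex, with no overlap (1.14, SE 0.18, adjusted p = 0.0072). Cnr1, the CB1 cannabinoid receptor, had 1.44, 2.42 and 2.84 in striatum and 2.54, 3.48 and 4.38 in cortex (−1.20, SE 0.14, adjusted p = 0.00204). Aifm3 was lower in NT striatum than in NT cortex as well (−0.85, SE 0.12, adjusted p = 0.00385). The count was 9 without striatum female replicate 1 or 3 or without cortex female replicate 1.

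After the ASO, Tardbp, the mRNA of the targeted TDP-43, had 6.41, 6.21 and 7.35 enriched distal clusters in the 3 ASO libraries and 13.5, 13.8 and 12.7 in the 3 PBS libraries (−0.95, SE 0.07, limma adjusted p = 0.000307), with no overlap. Its covered bases changed by −0.13 (SE 0.06, adjusted p = 0.237). A cluster count is not the level of the mRNA, so it does not check the knockdown. Because the lists of a treatment share their intervals, any difference in calling between the 2 treatments repeats in all 3 libraries. Of 3708 distal genes 1633 were called, 828 higher and 805 lower (44.0%, against 45.9% of 15928 combinations), and 1258 of 2990 genes relative to the rest of the transcript (42.1%). In 2339 of the 3708 distal genes the treatments did not overlap.

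The limma values of single genes below come from lists with shared intervals as well and are no replicate tests. Elavl3, a neuronal RNA-binding protein, had 13.9, 12.4 and 11.6 after the ASO and 5.79, 5.92 and 7.24 after PBS (0.95, SE 0.11, adjusted p = 0.00115). Ago2, the slicer of the microRNA pathway, had 6.41, 6.21 and 4.20 after the ASO and 1.93, 0.986 and 0.905 after PBS (1.81, SE 0.27, adjusted p = 0.0034). On covered bases Elavl3 changed by 0.36 (adjusted p = 0.0174) and Ago2 by 0.84 (adjusted p = 0.0906). Over all listed clusters the changes were 0.41 for Elavl3 and 0.19 for Ago2. Srrm2, a protein of nuclear speckles, had 2.14, 2.07 and 2.10 after the ASO and 6.75, 6.90 and 6.33 after PBS (−1.46, SE 0.04, adjusted p = 8.57e-05), while its covered bases changed by 0.06 (SE 0.02, adjusted p = 0.0798). The log2 fold, which was scored per library, gave none of 9276 distal sites called (limma, 0.0231% of 39022 sites of all classes, and 1006 distal sites at an unadjusted p under 0.05).

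TDP-43 sites of the same study, from 16 TDP-43 libraries per region, overlapped 1019 distal m6A sites (9.79%) in striatum and 1914 (18.4%) in cortex. The shares at other positions were 8.96% of stop codon window sites and 9.67% of coding sites in striatum and 16.7% and 18.2% in cortex. Overlapping distal sites were longer, with medians of 232 and 162 bases for sites with and without overlap in striatum and 235 and 156 bases in cortex. Among distal sites of 101 to 200 bases 8.11% overlapped in striatum, beside 5.53% of stop codon window sites and 8.32% of coding sites, and in cortex 14.9%, beside 10.4% and 16.7%. In the 51 bases centred on the site, GGACT stood in 9.91% of overlapping and 15.4% of other distal sites of striatum, and TGTGT in 9.42% and 9.18%. No test was made of these shares.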

How the data were processed

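m6A eCLIP libraries of poly-dT-enriched RNA were deposited as cluster lists. Per the labels and the study's methods, the authors called clusters with CLIPper on mm10 and scored each against its input; the deposited −log10 p (0 where the fold is below 0, at most 400) and log2 fold of IP over input were used as given. Read numbers were not used here, so depth is the number of clusters. TDP-43 lists served only the overlap. Clusters were assigned by midpoint to GENCODE M21, longest coding transcript per gene.

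Enriched distal clusters per gene were scaled by size factors (median of ratios), and their log2 values (0.5 added; 2 or more in 50% of libraries) were fitted with limma 3.58.1 (R 4.3.3; lmFit, eBayes with trend, two-sided, sex as covariate), adjusted by Benjamini-Hochberg over all classes. Sites took the highest authors' log2 fold of overlapping clusters, centred per library, in libraries that all listed the site. Library values were compared by exact permutation within sex (4900 arrangements, smallest p 0.000408) in Python 3.11.15. Fits were tested on simulated data. The groups hold separate libraries of each sex, and labels do not name animals.

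Members and gene lists were chosen with earlier results of these data known. The text names, for each comparison, the 6 highest and 6 lowest called distal changes (mean of 3 or more clusters, sexes alike in sign), the 2 highest and lowest called against the rest of the gene and on log2 fold, the genes with most distal clusters in NT mice and the leading called genes of each list; others are named where a count is 5 or fewer or after their values were seen. Alternatives were other cluster thresholds, constants, filters, normalizations, sexes apart, single libraries left out, a replicate block and, chosen after seeing the data, covered bases (25 added). Correlations between same-numbered samples of the same sex did not all pass 0.1 in any comparison, so numbers were not taken to pair samples. Some genes that meet these rules are not reported here.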

Additional observations from a re-analysis of the deposited data

Results flagged for a closer look

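Of 48 groups of 4 libraries checked for a single distant value, chance alone would flag about 5%, and 5 stood out. In cortex NT males, replicate 1 lay apart in 3 related measures: 28.47% of its enriched clusters were distal, against 25.05, 25.09 and 25.63% in the others, its median distance past the stop codon was 586 bases, against 566, 567 and 568, and its median relative position in the 3′ UTR was 40.11%, against 34.18, 34.3 and 35.02%. In cortex R6/2 males, replicate 1 had 25.24% distal clusters, against 24.4 to 24.51% in the others. In striatum NT males, replicate 2 had 17771 enriched distal clusters, against 16644 to 16681. The cause was not tested.

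The effect of the R6/2 genotype on distal clusters differed between striatum and cortex in several genes (limma contrast, striatum minus cortex): Asxl1 by 1.08, Camkk1 by −0.64, Kcnk9 by −0.87 and Onecut2 by −2.22.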

How the results depend on the processing

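The lists hold clusters and not reads, so a count of clusters mixes signal and how a covered stretch was split, and it is coarse for genes with few clusters. Under the study's thresholds the called distal genes were 1 in striatum, 0 in cortex, 42 after the ASO and 8 between regions, those against the rest of the gene 1, 0, 3 and 0, and the region contrast 0, with fewer clusters left to count. In males alone 22, 12 and 145 distal genes were called (striatum, cortex, regions), and in females alone 65 and 3 for striatum and cortex, with fewer libraries. Over all listed clusters 5881 were called after the ASO, 10, 7 and 7179 against the rest (striatum, cortex, ASO) and 2 in the region contrast. On covered bases 22, 22 and 80 genes were called against the rest (striatum, cortex, regions), and with 1 added 1 and 4 (striatum, cortex). With the log2 fold averaged over clusters 4 and 8 sites were called (cortex, regions), without centring 30 between regions, and with sites of at least 8 libraries 2 after the ASO.

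Between regions all 8 correlations of same-numbered samples were positive (0.0208 to 0.112). With a replicate block, 170, 92, 1363 and 423 distal genes were called (striatum, cortex, ASO, regions), 1, 0 and 11 against the rest and 6, 3 and 3 sites (striatum, cortex, regions). Correlations between same-numbered samples ranged from −0.175 to 0.133, and samples correlated best with their own number in 0 of 8, 3 of 8, 0 of 3 and 4 of 8 pairs.

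Leaving out single libraries gave 171 to 210, 88 to 114, 1239 to 1575 and 395 to 466 distal genes, 0 to 1, 0 to 5, 955 to 1042 and 3 to 26 against the rest, and 16 to 27, 5 to 10, 0 to 0 and 9 to 18 sites (striatum, cortex, ASO, regions), and a cortex difference in distal share of −1.68 to −0.958 points.

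Of the values of named genes under an alternative, 1762 kept sign and side of the threshold, 315 kept the sign only and 7 turned: Slc1a2 (0.079 in striatum and 0.30 in cortex under the study's thresholds, 0.036 in cortex on covered bases), Zfp618 in cortex (−0.034) and Galns between regions (0.068) over all listed clusters, Srrm2 after the ASO (0.062) on covered bases and Ago4 between regions (−0.00837) under the study's thresholds. The cause was not tested.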
